A study of Mus musculus with 6 samples.

Results

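The 32 genes described here encode the enzymes, carriers and binding proteins that bring fatty acids into mitochondria and peroxisomes and shorten them there. They were taken as a fixed list of gene symbols, matched through Entrez gene ID to the deposited tables, and all 32 were found among the 18822 genes with values. By location of the protein, 19 were counted as mitochondrial, 6 as peroxisomal and 3 (Slc27a2, Crat and Eci2) as shared between the peroxisome and another compartment. The remaining 4 (Acsl1, Fabp1, Fabp3 and Acot1) were put in a group of others. Membership of that group does not mean that a protein is absent from mitochondria or peroxisomes. The list was labelled fatty acid oxidation and ketogenesis, but genes of ketone body metabolism are not among the 32, and 7 of them are given from a separate list.

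RNA was sequenced from renal glomeruli of C57BL/6J mice in 6 libraries, 3 labelled PR3_KO and 3 labelled WT. PR3_KO mice carry a knockout of proteinase 3, the neutrophil serine protease encoded by Prtn3, and WT mice are the wild-type controls. All 6 libraries, controls included, come from animals with diabetic kidney disease, so no comparison with a healthy kidney is possible. The diabetes model, the age of the animals and whether the knockout is in all cells are not stated in the sources at hand. Nor is it stated that each library is from its own animal, so a p-value reflects the spread among these samples alone, part of which may be technical.

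Long-chain fatty acids are coupled to coenzyme A, passed to carnitine by Cpt1a at the outer mitochondrial membrane, carried inward by Slc25a20 and returned to coenzyme A by Cpt2. Each turn of the spiral then uses an acyl-CoA dehydrogenase, a hydratase, a 3-hydroxyacyl-CoA dehydrogenase and a thiolase, while the electron transfer flavoproteins hand electrons to the respiratory chain. Peroxisomes shorten very long and branched chains with enzymes of their own. In the kidney the proximal tubule is the segment best known for living on fatty acid oxidation, and many of these genes are textbook targets of the nuclear receptor PPAR alpha.

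Values are FPKM, fragments scaled by the length of the transcript and by the mapped fragments of the library, so levels can be compared between genes. A fold change is the difference in mean log2(FPKM + 1), PR3_KO minus WT; for genes near or below 1 FPKM it comes out too small. The FPKM of a library summed to 566772 to 604697 in PR3_KO and 494316 to 543564 in WT. The most common value above 0 of 66 olfactory receptor genes, taken as 1 fragment, put the depth roughly at 13227513 to 15117158 fragments. That value was 0.08 FPKM in WT 1 and 0.07 FPKM in the other libraries. The ends of the range are thus 1 rounding step apart and do not show a difference in depth. Prtn3 was near the detection limit in both genotypes: PR3_KO libraries had 0.14, 0 and 0.07 FPKM, and WT libraries had 0.46, 0.21 and 0.22 FPKM. All PR3_KO values were below all WT values (exact permutation p = 0.1, two-sided, where a design of this size can go no lower). Markers of the labelled tissue were present in all libraries, with 15 podocyte markers summing to 447 to 695 FPKM in PR3_KO and 815 to 1322 FPKM in WT. The 32 proximal tubule markers summed to 54246 to 70623 FPKM in PR3_KO and 9843 to 26659 FPKM in WT. Of these markers 25 rose (median log2 fold change 0.84), where 11.7% of all genes rose. Y-linked transcripts were present in all libraries, with 4 genes summing to 31.7 to 33.9 FPKM in PR3_KO and 55.5 to 58.1 FPKM in WT. The sums did not overlap, and 3 of the 4 genes fell (median log2 fold change -0.56), where 41.1% of all genes fell. With median-of-ratios scaling the call of Uty was lost (adjusted p = 0.173, limma). Presence in all libraries does not show that the genotypes were matched for sex. In whole-tissue RNA, more cells of a type and more RNA per cell cannot be told apart.

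Most genes of fatty acid oxidation were higher in PR3_KO glomeruli, from acyl-CoA synthesis and the carnitine shuttle to the mitochondrial and peroxisomal spirals. Of the 32 genes, 19 rose and 0 fell at an adjusted p under 0.05 (limma), and at an unadjusted p under 0.05 the counts were 22 and 0. The 19 include Fabp1, which reached the mean of 1 FPKM needed for the test only through PR3_KO. Over all 12388 genes tested, 11.7% rose and 41.1% fell. All 32 had a positive fold change, with a median of 0.57, where 30.3% of all genes were positive, 69.7% were negative and the median gene stood at -0.26. When the libraries were scaled to equal sums, Slc25a20 and Hadhb turned to -0.0014 and -0.037 and 14 of the 32 rose, while the median gene stood at -0.40, with 7.23% of all genes rising and 51% falling. With median-of-ratios scaling the median gene stood at 0.03 and 26 of the 32 rose, with 25.4% of all genes rising and 22.3% falling. All 32 genes lay above the median gene under each of these 3 scalings. For 20 of the 32 every PR3_KO library was above every WT library, against 16% of all genes, and for 0 of the 32 the order was the opposite, against 49.1% of all genes. Over the 6 libraries the mean level ran from 895 FPKM for Slc27a2, 429.5 FPKM for Etfb and 346 FPKM for Hadh to 4.64 FPKM for Pdk4 and 1.88 FPKM for Fabp1.

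**Figure D1:**
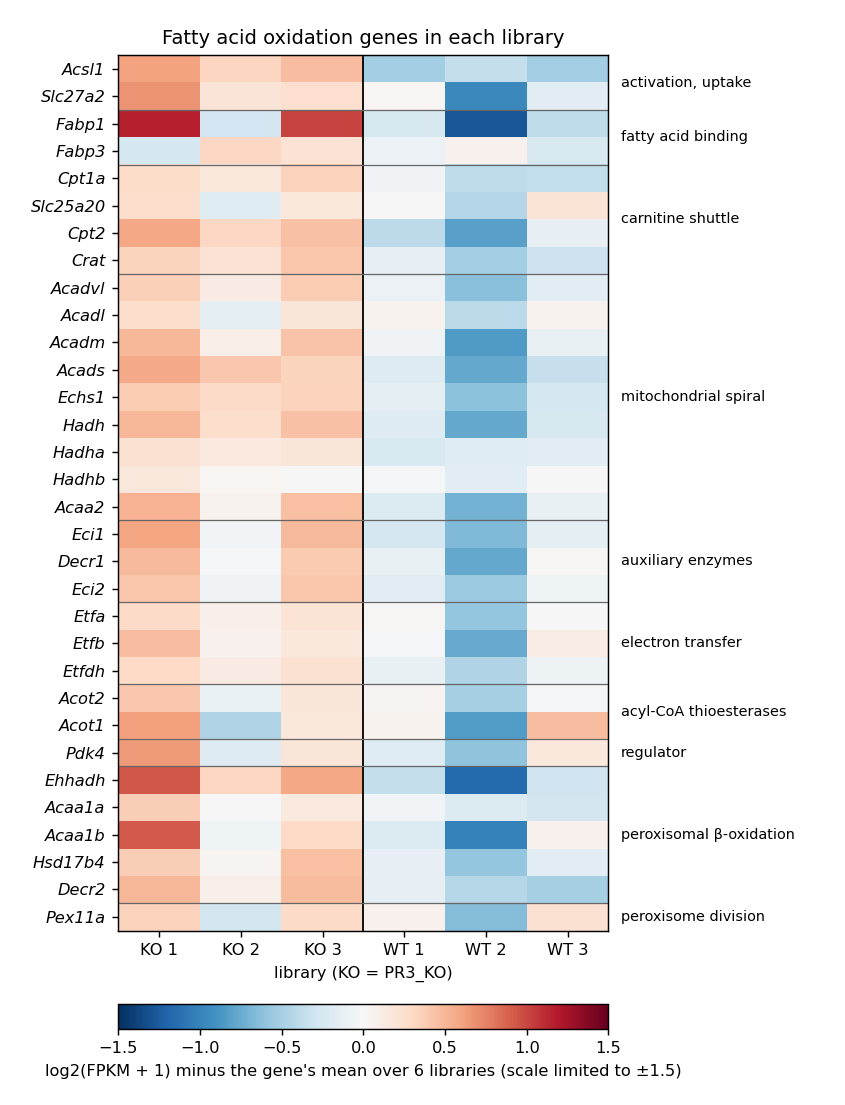
Each row is 1 of the 32 genes, grouped by role, and each column is 1 library, PR3_KO on the left and WT on the right. Colour gives log2(FPKM + 1) minus the gene's mean over the 6 libraries; most rows are red in PR3_KO and blue in WT, with PR3_KO 2 paler than PR3_KO 1 and 3 and WT 2 the deepest blue.

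Of the roles the 32 genes were sorted into, activation and uptake, with only 2 genes, had the highest median fold change (0.83). Acsl1, the long-chain acyl-CoA synthetase (gene ID 14081, chr8:46471037-46536051 of GRCm38.p6), measured 89.2, 73.3 and 80.8 FPKM in PR3_KO 1, 2 and 3, against 40.9, 45.6 and 40.5 FPKM in WT 1, 2 and 3. The genotypes did not overlap and the spread within each was small (81.1 ± 7.95 FPKM in PR3_KO and 42.3 ± 2.82 FPKM in WT, SD, n = 3 each; log2 fold change 0.92, SE 0.11, adjusted p = 0.000942). Among the 32 genes it had the smallest adjusted p. Slc27a2, a very long-chain acyl-CoA synthetase and fatty acid transporter, was the most abundant of the 32, with 1347, 965 and 1005 FPKM in PR3_KO 1, 2 and 3, against 865, 434 and 752 FPKM in WT 1, 2 and 3. Every PR3_KO library was above every WT library, with WT 2 far below WT 1 and 3, and the gene just missed the threshold (log2 fold change 0.74, SE 0.27, adjusted p = 0.0502).

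The fatty acid binding proteins carry fatty acids through the cytosol. Fabp3, the heart type, measured 70.2, 106 and 98.2 FPKM in PR3_KO 1, 2 and 3, against 79.3, 88.2 and 71.9 FPKM in WT 1, 2 and 3, and the genotypes overlapped (log2 fold change 0.18, SE 0.17, adjusted p = 0.397). PR3_KO 1, the highest library for most of the genes, was the lowest of the 6 for Fabp3. Fabp1, the liver type, was the least abundant of the 32, with 4.43, 0.990 and 3.91 FPKM in PR3_KO 1, 2 and 3, against 1.06, 0 and 0.870 FPKM in WT 1, 2 and 3. It had the highest fold change of the list and rose (log2 fold change 1.26, SE 0.43, adjusted p = 0.0401), but PR3_KO 2 lay below WT 1, and the WT 2 value is listed at 0. Fabp1 reached the mean of 1 FPKM needed for the test only through PR3_KO (mean 3.11 FPKM, against 0.643 FPKM in WT). Its call is therefore not independent of that filter. The call was lost on leaving out any 1 of PR3_KO 1, PR3_KO 3, WT 2 and WT 3, with a pseudocount of 0.1 and with no filter on low values.

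Because many of these genes are known PPAR alpha targets, the promoter windows of RefSeq on GRCm38.p6 (250 bases before to 50 bases after a start site) were searched for the receptor's direct repeat. The motif was AGGTCANAGGTCA, allowing 2 mismatches at its 12 fixed letters on either strand, and it contains the unit AGGTCA at each end. Windows were found for 28 of the 32 genes, 29 windows in all; Hsd17b4, Acaa2, Crat and Decr1 were not in the table. A match stood in 4 of the 29 windows (13.8%) and in 1268 of all 32841 windows (3.86%). With 1 mismatch allowed the counts were 1 of 29 (3.45%) and 182 of 32841 (0.554%), and an exact unit AGGTCA stood in 20.7% of the 29 windows and 16.3% of all. The 4 matches are shown because they are the stretches of these promoters nearest to the repeat, read along the motif with the repeat units in capitals and the spacer base in lower case.
Fabp1: AGGCCAtAGGTCA
Echs1: AGGTCAcGGGTCC
Etfa: AGGGCAaAGGTAA
Slc25a20: AGGTGAaAGGTCG
The Fabp1 match has 1 mismatch and lies on the reverse strand at chr6:71199812-71199824, from -67 to -55 relative to the start site. The others have 2 mismatches each, at chr7:140116492-140116504 for Echs1 (-83 to -71), chr9:55512308-55512320 for Etfa (-77 to -65) and chr9:108662142-108662154 for Slc25a20 (7 to 19 after the start). Fabp1 and Echs1 rose, while Etfa and Slc25a20 did not pass the test. A match is a description of letters and says nothing of binding, and a window without one says only that these letters are not in it.

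The closest match is given with its surroundings, the 250 bases before the Fabp1 start site at chr6:71199629-71199878 on the + strand, with the match in capitals as read on that strand.
Fabp1 promoter: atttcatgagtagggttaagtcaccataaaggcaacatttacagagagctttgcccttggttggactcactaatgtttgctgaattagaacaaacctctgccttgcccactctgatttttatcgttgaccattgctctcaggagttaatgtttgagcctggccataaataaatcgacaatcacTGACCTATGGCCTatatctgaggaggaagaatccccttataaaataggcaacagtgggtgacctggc

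Of the 4 carnitine shuttle genes, 3 rose, where 11.7% of all genes tested rose, and the carrier did not pass the test. Cpt1a, the malonyl-CoA-sensitive entry step, measured 128, 118 and 134 FPKM in PR3_KO 1, 2 and 3, against 102, 80.7 and 81.02 FPKM in WT 1, 2 and 3. All 3 PR3_KO libraries were above all 3 WT libraries (log2 fold change 0.53, SE 0.13, adjusted p = 0.0110). Cpt2, the inner membrane enzyme (gene ID 12896, chr4:107903982-107923589), measured 98.7, 81.5 and 89.6 FPKM in PR3_KO 1, 2 and 3, against 49.9, 36.7 and 59.96 FPKM in WT 1, 2 and 3, the highest fold change of the 19 mitochondrial genes (log2 fold change 0.89, SE 0.18, adjusted p = 0.00505). Its lowest PR3_KO library stood above its highest WT library. Crat, which moves acetyl groups on and off carnitine, measured 68.1, 62.8 and 72.2 FPKM in PR3_KO 1, 2 and 3, against 49.2, 37.2 and 43.3 FPKM in WT 1, 2 and 3, again without overlap (log2 fold change 0.64, SE 0.13, adjusted p = 0.00460). Slc25a20, the translocase between them, measured 41.4, 29.98 and 38.1 FPKM in PR3_KO 1, 2 and 3, against 34.1, 24.9 and 39.4 FPKM in WT 1, 2 and 3, and WT 3 was above 2 of the 3 PR3_KO libraries (log2 fold change 0.16, SE 0.19, adjusted p = 0.483).

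The acyl-CoA dehydrogenases open the spiral and differ in the chain length they take. Acads, for short chains (gene ID 11409, chr5:115110299-115119346), measured 106, 94.2 and 89.7 FPKM in PR3_KO 1, 2 and 3, against 62.1, 41.6 and 55.99 FPKM in WT 1, 2 and 3. No library of one genotype reached into the other (96.7 ± 8.54 FPKM in PR3_KO and 53.2 ± 10.6 FPKM in WT, SD, n = 3 each; log2 fold change 0.87, SE 0.16, adjusted p = 0.00362). Acadm, for medium chains, measured 310.0, 236 and 295 FPKM in PR3_KO 1, 2 and 3, against 211, 122 and 203 FPKM in WT 1, 2 and 3, with WT 1 close below PR3_KO 2 (log2 fold change 0.68, SE 0.23, adjusted p = 0.0358). Acadvl, for very long chains, measured 168, 143 and 171 FPKM in PR3_KO 1, 2 and 3, against 124, 84.7 and 118 FPKM in WT 1, 2 and 3 and also rose without overlap (log2 fold change 0.58, SE 0.17, adjusted p = 0.0216). Acadl, for long chains, measured 158, 119 and 149 FPKM in PR3_KO 1, 2 and 3, against 137, 98.8 and 136 FPKM in WT 1, 2 and 3. For Acadl WT 1 and WT 3 were above PR3_KO 2, and the gene did not pass the test (log2 fold change 0.20, SE 0.17, adjusted p = 0.349).

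Hadh, Echs1 and Acaa2, which act in the later steps of the spiral, rose as well. Hadh, the short-chain 3-hydroxyacyl-CoA dehydrogenase, was the most abundant of them with 469, 398 and 448 FPKM in PR3_KO 1, 2 and 3, against 288, 194 and 279 FPKM in WT 1, 2 and 3 (log2 fold change 0.80, SE 0.18, adjusted p = 0.00717). The lowest PR3_KO library of Hadh was above the highest WT library. Echs1, the short-chain enoyl-CoA hydratase, measured 134, 126 and 131 FPKM in PR3_KO 1, 2 and 3, against 93.3, 67.02 and 85.9 FPKM in WT 1, 2 and 3. The PR3_KO libraries of Echs1 differed little among themselves (131 ± 4.03 FPKM in PR3_KO and 82.1 ± 13.5 FPKM in WT, SD, n = 3 each; log2 fold change 0.68, SE 0.14, adjusted p = 0.00581). Acaa2, the mitochondrial thiolase, measured 226, 162 and 215 FPKM in PR3_KO 1, 2 and 3, against 135, 95.6 and 145 FPKM in WT 1, 2 and 3, and the genotypes did not overlap (log2 fold change 0.68, SE 0.20, adjusted p = 0.0205).

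Hadha and Hadhb encode the paired subunits of the mitochondrial trifunctional protein, which handles long chains. Hadha measured 107, 101 and 104 FPKM in PR3_KO 1, 2 and 3, against 77.9, 80.2 and 81.6 FPKM in WT 1, 2 and 3, a small change above a small spread (104 ± 3.24 FPKM in PR3_KO and 79.9 ± 1.87 FPKM in WT, SD, n = 3 each; log2 fold change 0.37, SE 0.10, adjusted p = 0.0143). Hadhb measured 122, 111 and 108 FPKM in PR3_KO 1, 2 and 3, against 106, 96.7 and 109 FPKM in WT 1, 2 and 3, and WT 3 lay just above PR3_KO 3 (log2 fold change 0.13, SE 0.11, adjusted p = 0.352). The difference between the paired subunits is described further by their ratio in each library. Hadha over Hadhb came to 0.877, 0.912 and 0.959 in the PR3_KO libraries and to 0.733, 0.829 and 0.751 in the WT libraries. The ratios did not overlap (exact two-sided permutation p = 0.1, the lowest possible). The Hadhb value carries a limit, since 62.4% of the 50-base stretches of its longest transcript occur in transcripts of other genes, mainly Gm13910, and how the authors placed such fragments is not given.

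The paired genes lie head to head on chromosome 5, with start sites at 30154980 for Hadha on the - strand and 30155253 for Hadhb on the + strand, 273 bases apart. The 228 bases that belong to both promoter windows (chr5:30155003-30155230) are shown on the strand of Hadha, since both genes share this stretch and differed in their calls. That contrast held only for the deposited scaling among the 3 compared: with median-of-ratios scaling both passed (adjusted p = 0.00401 for Hadha and 0.0342 for Hadhb, limma), and with equal sums neither did (0.0968 and 0.757). No match to the direct repeat was found in either window, which says only that these letters are not there.
Hadha and Hadhb shared promoter: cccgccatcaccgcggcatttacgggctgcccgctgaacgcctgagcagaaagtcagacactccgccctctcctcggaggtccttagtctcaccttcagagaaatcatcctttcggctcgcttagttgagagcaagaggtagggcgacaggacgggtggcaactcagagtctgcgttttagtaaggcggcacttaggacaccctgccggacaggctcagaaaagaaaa

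Ratios between genes of a library do not change with the scaling of that library. For 9 pairs, chosen after the values were seen, no ratio could pass 0.05, because 3 against 3 libraries give an exact two-sided permutation p of 0.1 at best (0.225 after Benjamini-Hochberg adjustment over the 9). Of these pairs, 4 did not overlap between genotypes. Acads over Acadl came to 0.672, 0.792 and 0.602 in the PR3_KO libraries and to 0.455, 0.421 and 0.410 in the WT libraries. The short-chain enzyme stood higher relative to the long-chain one in every PR3_KO library. Ehhadh over Hadha, a peroxisomal over a mitochondrial multifunctional enzyme, came to 2.27, 1.57 and 1.84 in the PR3_KO libraries and to 1.27, 0.704 and 1.27 in the WT libraries. Hadh over Hadha came to 4.37, 3.95 and 4.32 in the PR3_KO libraries and to 3.70, 2.42 and 3.42 in the WT libraries. Together with Hadha over Hadhb these are the 4 pairs without overlap. Cpt2 over Cpt1a came to 0.771, 0.688 and 0.667 in the PR3_KO libraries and to 0.491, 0.455 and 0.740 in the WT libraries, where WT 3 fell among the PR3_KO libraries. The other 4 pairs, Acaa1b over Acaa1a, Acaa1a over Acaa2, Etfb over Etfa and Acot1 over Acot2, overlapped too (exact permutation p 0.3 to 0.7).

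**Figure D2:**
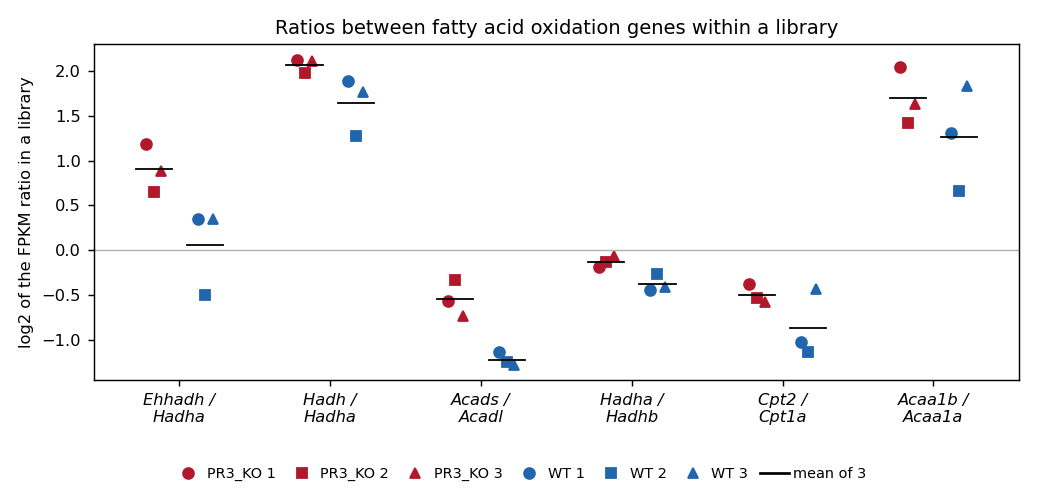
Points give the log2 of the FPKM ratio of 6 gene pairs in each library, PR3_KO in red at the left of each pair and WT in blue at the right, with bars at the mean of 3. Acads over Acadl, Ehhadh over Hadha, Hadh over Hadha and Hadha over Hadhb are separated, while WT 3 lies within the PR3_KO points for Cpt2 over Cpt1a and Acaa1b over Acaa1a.

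Unsaturated fatty acids need auxiliary enzymes to enter the spiral. Eci1, a mitochondrial enoyl-CoA isomerase, measured 136, 87.4 and 127 FPKM in PR3_KO 1, 2 and 3, against 75.03, 56.7 and 82.1 FPKM in WT 1, 2 and 3 and rose (log2 fold change 0.70, SE 0.20, adjusted p = 0.0220). Eci2, an isomerase of mitochondria and peroxisomes, measured 88.2, 63.02 and 88.1 FPKM in PR3_KO 1, 2 and 3, against 58.7, 44.3 and 62.6 FPKM in WT 1, 2 and 3 (log2 fold change 0.52, SE 0.18, adjusted p = 0.0403). Both separated the genotypes, but for each the gap between PR3_KO 2 and the nearest WT library was narrow, and the call of Eci2 was lost without any 1 of PR3_KO 1, PR3_KO 3, WT 1 and WT 2, with equal sums and with no filter. Decr1, the mitochondrial 2,4-dienoyl-CoA reductase, measured 113, 79.3 and 105 FPKM in PR3_KO 1, 2 and 3, against 74.1, 46.5 and 80.7 FPKM in WT 1, 2 and 3, with WT 3 above PR3_KO 2 (log2 fold change 0.58, SE 0.23, adjusted p = 0.0609).

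Of the 3 electron transfer genes 1 rose, where 11.7% of all genes tested rose, and their median fold change was 0.43. Etfdh, which passes the electrons to ubiquinone, measured 75.7, 66.8 and 71.9 FPKM in PR3_KO 1, 2 and 3, against 56.7, 44.5 and 58.5 FPKM in WT 1, 2 and 3 and rose (log2 fold change 0.43, SE 0.13, adjusted p = 0.0254). Etfa measured 172, 148 and 162 FPKM in PR3_KO 1, 2 and 3, against 143, 93.8 and 141 FPKM in WT 1, 2 and 3, without overlap but short of the threshold (log2 fold change 0.37, SE 0.18, adjusted p = 0.111). Etfb measured 574, 436 and 463 FPKM in PR3_KO 1, 2 and 3, against 408, 247 and 449 FPKM in WT 1, 2 and 3. WT 3 was above PR3_KO 2 for Etfb (log2 fold change 0.45, SE 0.24, adjusted p = 0.138), and 67.3% of the 50-base stretches of its transcript occur in Gm45233 too.

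The thioesterases, which release fatty acids from coenzyme A, and the kinase Pdk4, which turns pyruvate oxidation down, did not pass the test. Acot2, the mitochondrial form, measured 25.7, 17.8 and 21.7 FPKM in PR3_KO 1, 2 and 3, against 19.6, 13.2 and 18.8 FPKM in WT 1, 2 and 3 (log2 fold change 0.33, SE 0.18, adjusted p = 0.156). Acot1, the cytosolic form, measured 51.5, 23.9 and 37.4 FPKM in PR3_KO 1, 2 and 3, against 34.3, 18.1 and 45.9 FPKM in WT 1, 2 and 3 (log2 fold change 0.22, SE 0.38, adjusted p = 0.640). For Acot1 PR3_KO 2 was the second lowest of the 6 and WT 3 the second highest. These paralogs share 23.7% of the stretches of Acot1 and 24.6% of those of Acot2, so fragments may have been split between them. Pdk4, with 7.44, 3.77 and 5.19 FPKM in PR3_KO 1, 2 and 3, against 3.81, 2.58 and 5.05 FPKM in WT 1, 2 and 3, was low in all libraries (log2 fold change 0.42, SE 0.25, adjusted p = 0.187).

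Among the 6 peroxisomal genes, 4 rose, where 11.7% of all genes tested rose. Ehhadh, the L-bifunctional enzyme that joins the hydratase and dehydrogenase steps (gene ID 74147, chr16:21761285-21787834), measured 243, 158 and 191 FPKM in PR3_KO 1, 2 and 3, against 98.98, 56.4 and 103 FPKM in WT 1, 2 and 3. Its PR3_KO mean was 2.29 times its WT mean, and the genotypes did not overlap (197 ± 43.1 FPKM in PR3_KO and 86.3 ± 25.95 FPKM in WT, SD, n = 3 each; log2 fold change 1.21, SE 0.26, adjusted p = 0.00641). Decr2, the peroxisomal 2,4-dienoyl-CoA reductase, measured 41.5, 30.7 and 40.8 FPKM in PR3_KO 1, 2 and 3, against 26.8, 21.4 and 20.3 FPKM in WT 1, 2 and 3 (log2 fold change 0.70, SE 0.15, adjusted p = 0.00696). Hsd17b4, the D-bifunctional enzyme, measured 111, 88.5 and 117 FPKM in PR3_KO 1, 2 and 3, against 78.9, 57.3 and 76.5 FPKM in WT 1, 2 and 3 (log2 fold change 0.57, SE 0.16, adjusted p = 0.0211). Both separated the genotypes.

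The peroxisomal thiolases Acaa1a and Acaa1b close the spiral of that organelle, and Pex11a takes part in its division. Acaa1a measured 81.8, 63.5 and 70.4 FPKM in PR3_KO 1, 2 and 3, against 61.7, 54.9 and 52.1 FPKM in WT 1, 2 and 3 and lay at the threshold (log2 fold change 0.35, SE 0.13, adjusted p = 0.0498). The genotypes did not overlap, and the call was lost without any 1 of PR3_KO 1, PR3_KO 3, WT 2 and WT 3, with equal sums (log2 fold change 0.18, adjusted p = 0.236, limma), with no filter (adjusted p = 0.0681) and with no trend or robust moderation (adjusted p = 0.0516). Acaa1b measured 337, 169.8 and 219 FPKM in PR3_KO 1, 2 and 3, against 153, 86.9 and 185 FPKM in WT 1, 2 and 3, and WT 3 was above PR3_KO 2 (log2 fold change 0.78, SE 0.33, adjusted p = 0.0799). The thiolase transcripts share 34.0% of the stretches of Acaa1a and 35.6% of those of Acaa1b, so their split is uncertain. Pex11a measured 27.9, 17.7 and 26.8 FPKM in PR3_KO 1, 2 and 3, against 22.7, 13.5 and 25.6 FPKM in WT 1, 2 and 3, with WT 1 and WT 3 above PR3_KO 2 (log2 fold change 0.24, SE 0.25, adjusted p = 0.447).

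Set side by side, mitochondrial and peroxisomal genes both had positive median fold changes, and the difference between the compartments overlapped between the genotypes. The 19 mitochondrial genes had a median log2 fold change of 0.53 (0.13 to 0.89), with 11 rising, and the 6 peroxisomal genes a median of 0.63 (0.24 to 1.21), with 4 rising. The 3 genes of shared location had a median of 0.64 and the 4 others 0.57, each with 2 rising. Beside these counts, 11.7% of all genes tested rose. Mean log2(FPKM + 1) of the mitochondrial genes stood at 6.89, 6.56 and 6.77 in the PR3_KO libraries and at 6.37, 5.90 and 6.40 in the WT libraries. That of the peroxisomal genes stood at 6.63, 6.07 and 6.43 in the PR3_KO libraries and at 5.93, 5.39 and 5.90 in the WT libraries. Each mean separated the genotypes. The peroxisomal minus the mitochondrial mean, a difference within a library, came to -0.26, -0.48 and -0.34 in the PR3_KO libraries and to -0.44, -0.51 and -0.50 in the WT libraries. PR3_KO 2 lay inside the WT range, and the genotypes differed by 0.12 on average (-0.36 ± 0.11 in PR3_KO and -0.48 ± 0.04 in WT, SD, n = 3 each). The spread within a compartment was wider than the gap between the 2 medians, with Ehhadh at 1.21 and Pex11a at 0.24 among the peroxisomal genes.

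**Figure D3:**
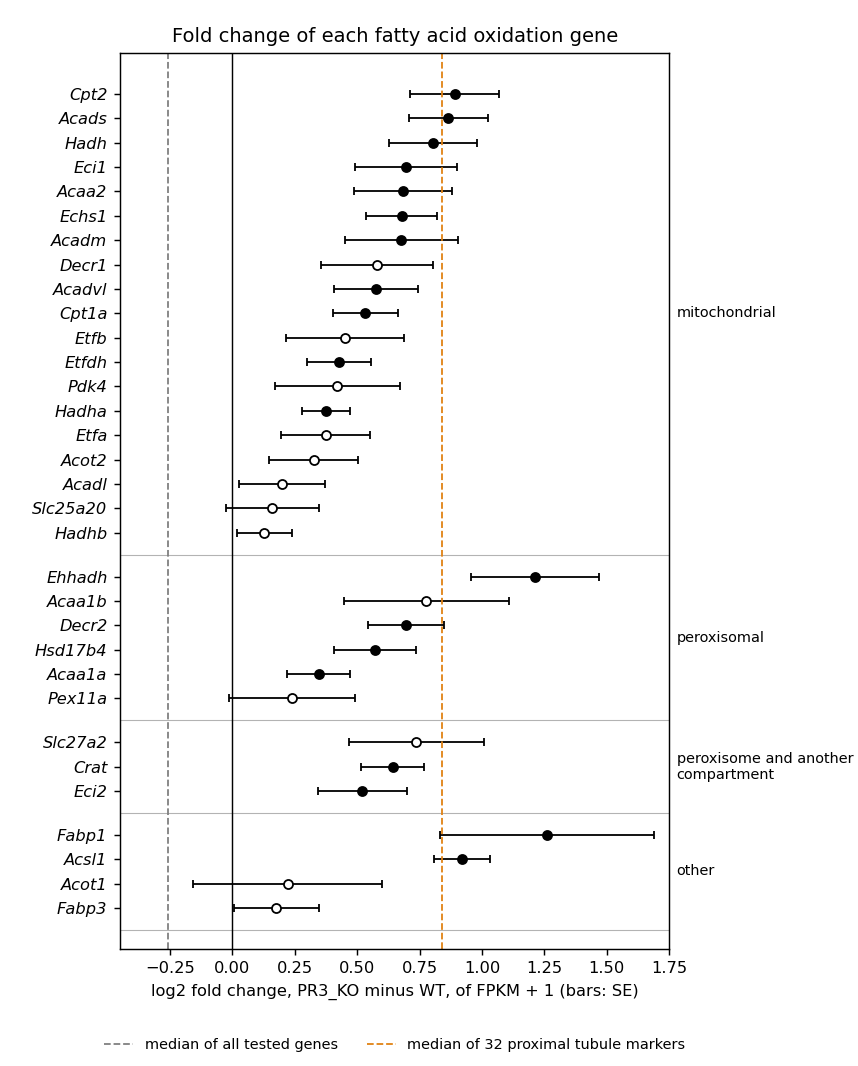
Points give each gene's log2 fold change, PR3_KO minus WT, with bars of 1 SE, grouped by compartment; filled points passed an adjusted p under 0.05 (limma). All 32 lie right of the median of all tested genes (-0.26), and 27 lie left of the median of the proximal tubule markers (0.84).

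Other genes of the same pathways came from lists of genes outside the 32, and each count is to be read beside the 11.7% of all genes that rose and the 41.1% that fell. Of 21 tested genes of peroxisomal fatty acid oxidation, 9 rose and 0 fell (10 and 0 at an unadjusted p under 0.05, limma), with a median of 0.47. Acox3, an acyl-CoA oxidase of the peroxisome, measured 117, 101 and 119 FPKM in PR3_KO 1, 2 and 3, against 75.1, 42.9 and 58.3 FPKM in WT 1, 2 and 3. Every PR3_KO library of Acox3 was above every WT library (log2 fold change 0.96, SE 0.19, adjusted p = 0.00531). The acyl-CoA dehydrogenase Acad11 (0.90, adjusted p = 0.00252, limma), the trans-2-enoyl-CoA reductase Pecr (1.02, adjusted p = 0.0110) and Phyh, which starts the breakdown of phytanic acid (0.71, adjusted p = 0.0146), rose too, though the call of Phyh was lost without PR3_KO 1 (adjusted p = 0.0565, limma). Of 15 peroxins, which build the organelle, 2 rose, close to the 11.7% of all genes, and 0 fell (4 and 0 unadjusted; median 0.23). The 2 were Pex11g (0.64, adjusted p = 0.00633, limma) and Pex16 (0.52, adjusted p = 0.0129).

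Of 19 other genes of mitochondrial acyl-CoA metabolism, 9 rose and 2 fell (median 0.43). The medium-chain acyl-CoA synthetases Acsm1 (1.22, adjusted p = 0.00254, limma) and Acsm5 (1.17, adjusted p = 0.00257) rose, as did Acad12 (0.68, adjusted p = 0.00937). The thioesterase Acot9 (-0.48, adjusted p = 0.00741, limma) and Cpt1b, the muscle form of Cpt1 (-0.41, adjusted p = 0.0295), fell, but with median-of-ratios scaling neither passed, with Acot9 at -0.16 (adjusted p = 0.343, limma) and Cpt1b at -0.12 (adjusted p = 0.424). The Cpt1b call was also lost without any 1 of PR3_KO 2, PR3_KO 3, WT 1 and WT 2. Cpt1b measured 5.74, 5.17 and 4.86 FPKM in PR3_KO, against 7.85, 8.08 and 6.07 FPKM in WT, far below Cpt1a in every library. Of 20 genes of the citric acid cycle and pyruvate dehydrogenase, 12 rose and 0 fell (13 and 0 unadjusted; median 0.45), led by Idh3g (0.72, adjusted p = 0.00276, limma), Idh2 (0.51, adjusted p = 0.00924), Mdh2 (0.60, adjusted p = 0.0126) and Fh1 (0.49, adjusted p = 0.0127).

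Of 7 genes of ketone body metabolism, 5 rose and 0 fell (5 and 0 unadjusted; median 0.63). Aacs, which activates acetoacetate for lipid synthesis, measured 73.9, 52.8 and 68.6 FPKM in PR3_KO 1, 2 and 3, against 36.1, 12.9 and 16.8 FPKM in WT 1, 2 and 3, without overlap (log2 fold change 1.65, SE 0.34, adjusted p = 0.00688). Acat1 (0.82, adjusted p = 0.00894, limma), the cytosolic hydroxybutyrate dehydrogenase Bdh2 (0.84, adjusted p = 0.00939) and Oxct1, the enzyme of ketone body use (0.63, adjusted p = 0.0136), rose, and so did the mitochondrial dehydrogenase Bdh1 (0.58, adjusted p = 0.0342). The Bdh1 call was lost with equal sums (adjusted p = 0.0658, limma), in the fit blocked on replicate (adjusted p = 0.0565), with no filter (adjusted p = 0.0554) and without any 1 of PR3_KO 1, PR3_KO 2, WT 2 and WT 3. The monocarboxylate transporters Slc16a1 (-0.02, adjusted p = 0.951, limma) and Slc16a6 (-0.15, adjusted p = 0.597) did not pass.

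The lists of regulators and lipid handling held genes that rose and genes that fell. Of 10 genes for PPAR alpha, related receptors and coactivators, 4 rose and 1 fell. Ppara itself measured 30.4, 23.1 and 33.1 FPKM in PR3_KO 1, 2 and 3, against 10.8, 6.74 and 7.76 FPKM in WT 1, 2 and 3, with no overlap (log2 fold change 1.67, SE 0.19, adjusted p = 0.000838). Pparg, the receptor best known from adipocytes, measured 3.16, 2.90 and 2.32 FPKM in PR3_KO 1, 2 and 3, against 7.24, 12.2 and 9.28 FPKM in WT 1, 2 and 3, and fell without overlap (log2 fold change -1.46, SE 0.18, adjusted p = 0.00101). The phosphatidate phosphatase and coactivator Lpin1 (1.06, adjusted p = 0.00106, limma) and the bile acid receptor Nr1h4 (1.36, adjusted p = 0.00249) rose. Of 10 tested PPAR alpha targets outside the 32 genes, 2 rose and 3 fell, where 11.7% of all genes rose and 41.1% fell. The pantetheinase Vnn1 (1.21, adjusted p = 0.00138, limma) and the mitochondrial coenzyme A carrier Slc25a42 (1.17, adjusted p = 0.00187) rose, while the lipase Mgll (-1.26, adjusted p = 0.000684), Ucp2 (-0.81, adjusted p = 0.0121) and Cpt1b fell. With median-of-ratios scaling Ucp2 (-0.48, adjusted p = 0.119, limma), like Cpt1b, did not pass. Of 16 tested genes of fatty acid uptake and storage 6 rose and 5 fell (median 0.05), among them the triglyceride synthase Dgat2 (1.25, adjusted p = 0.00289, limma) upward and Fabp5 (-0.74, adjusted p = 0.00233), Acsl4 (-0.72, adjusted p = 0.00243) and Acsl5 (-0.88, adjusted p = 0.00243) downward. The 7 listed adipocyte markers were at or below 0.24 FPKM in all libraries, with Ucp1 at 0 throughout.

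The libraries numbered 2 stood low for this pathway in both genotypes, a pattern noticed after the values were seen. PR3_KO 2 was the lowest PR3_KO library for 29 of the 32 genes, against 25.0% of all genes, and WT 2 was the lowest WT library for 27 of the 32, against 28.5% of all genes. The pattern was not particular to the 32 genes. PR3_KO 2 was lowest of its genotype for 85.7% of the other peroxisomal genes, 70% of the citric acid cycle list and 53.1% of the proximal tubule markers. For WT 2 these shares were 95.2%, 100% and 78.1%. For the podocyte markers both shares were 0%. PR3_KO 1 was the highest of all 6 libraries for 27 of the 32, against 12.6% of all genes. PR3_KO 2 minus the mean of PR3_KO 1 and 3 had a median of -0.31 on the log2 scale over the 32 genes and 0.04 over all genes. It reached -2.30 for Cyp4a14, a fatty acid omega-hydroxylase. Cyp4a14 measured 232, 37.8 and 155 FPKM in PR3_KO 1, 2 and 3, against 212, 74.1 and 229 FPKM in WT 1, 2 and 3, and its genotypes overlapped (log2 fold change -0.46, SE 0.75, adjusted p = 0.626). For 8 of the 32 genes (Fabp1, Acadl, Decr1, Etfb, Acot2, Pdk4, Acaa1b and Pex11a), PR3_KO 1 and 3 were above all WT libraries and PR3_KO 2 was not, as for 268 of all 12388 genes (2.16%). Without PR3_KO 2 and WT 2 the count of rising genes among the 32 was 22 in place of 19, while over all genes it was 1168 (9.43%) in place of 1454 (11.7%). In that fit 0 of the 32 and 35.1% of all genes fell.

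**Figure D4:**
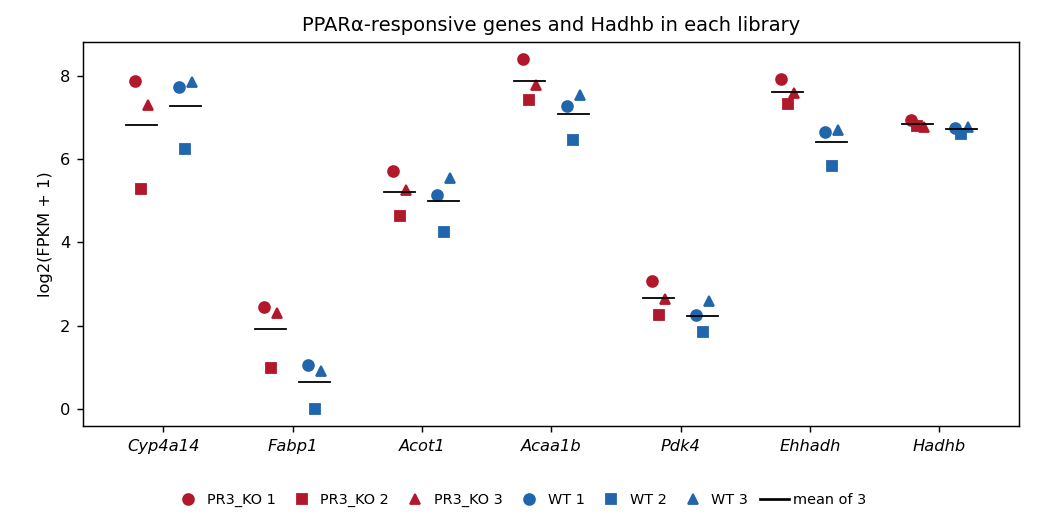
Points give log2(FPKM + 1) of 7 genes in each library, PR3_KO in red left of WT in blue, with bars at the mean of 3 and squares for the libraries numbered 2. The squares lie lowest in both genotypes for Cyp4a14, Fabp1, Acot1, Acaa1b, Pdk4 and Ehhadh, while the 6 points of Hadhb lie close together.

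Proximal tubule markers were higher in PR3_KO too. Their mean log2(FPKM + 1) reached 7.70, 7.65 and 7.77 in the PR3_KO libraries and 7.03, 6.30 and 6.72 in the WT libraries, without overlap, and it was lowest in WT 2, as was the mean of the 32 genes. Among the PR3_KO libraries the tubule mean was lowest in PR3_KO 2, by a smaller margin than the mean of the 32 genes. The latter was 6.30 in PR3_KO 2, against 6.70 and 6.57 in PR3_KO 1 and 3. PR3_KO 2 was the lowest PR3_KO library for 17 of the 32 tubule markers (53.1%), against 25.0% of all genes. The mean of the 32 genes minus that of the tubule markers came to -0.998, -1.35 and -1.20 in the PR3_KO libraries and to -0.917, -0.669 and -0.597 in the WT libraries. On this difference every PR3_KO library was below every WT library. Of the 32 genes, 5 had a fold change above the median of the tubule markers and 27 below it. Beside the 41.1% of all genes that fell, the falling markers were 14 of 14 for glomerular endothelium (median -1.32), 11 of 11 for macrophages (median -3.03), 9 of 15 for podocytes (median -0.63) and 5 of 8 for mesangium and smooth muscle (median -0.89). For the loop, distal tubule and collecting duct 6 of 13 fell, near that share, with a median of -0.47, or -0.14 with median-of-ratios scaling. With that scaling the median was -0.317 for podocytes and -0.605 for mesangium and smooth muscle, and 22.3% of all genes fell. The medians of glomerular endothelium and macrophages stayed lower than both. The podocyte calls of Nphs1, Podxl, Cdkn1c and Plce1 were then lost, as were those of Myh11 and Des in mesangium and smooth muscle. In the loop list the calls of Calb1, Aqp2, Scnn1b, Scnn1g and Atp6v1b1 were lost. No marker of the tubule or podocyte list was at 0 in all libraries.

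This tubule score separated the genotypes completely, so the share of tubule RNA and the genotype cannot be told apart in these 6 libraries. With the score added to the model, 0 of the 32 genes and 0 of all genes passed an adjusted p under 0.05 (limma). At an unadjusted p under 0.05 the counts were 1 and 1197. In that fit 20 of the 32 fold changes were negative, with a median of -0.13, and the median over all genes tested was negative too (-0.15). The standard errors of the 32 genes were then 1.97 times as large at the median. The count of 19 also rested on single libraries: without PR3_KO 1, and likewise without PR3_KO 3, 9 genes rose, namely Acsl1, Cpt1a, Cpt2, Crat, Acads, Echs1, Hadh, Ehhadh and Decr2. Over all 12388 genes the rising count dropped in these fits too, from 1454 to 917 without PR3_KO 1 and 943 without PR3_KO 3. The calls of Fabp1, Acadvl, Acadm, Hadha, Acaa2, Eci1, Eci2, Etfdh, Acaa1a and Hsd17b4 were lost in both cases. With equal sums the calls of Acadm, Hadha, Eci2, Etfdh and Acaa1a were lost, and with no filter those of Fabp1, Acadm, Eci2 and Acaa1a. With median-of-ratios scaling Slc27a2, Fabp3, Hadhb, Decr1, Etfa, Acot2 and Acaa1b passed as well.

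**Figure D5:**
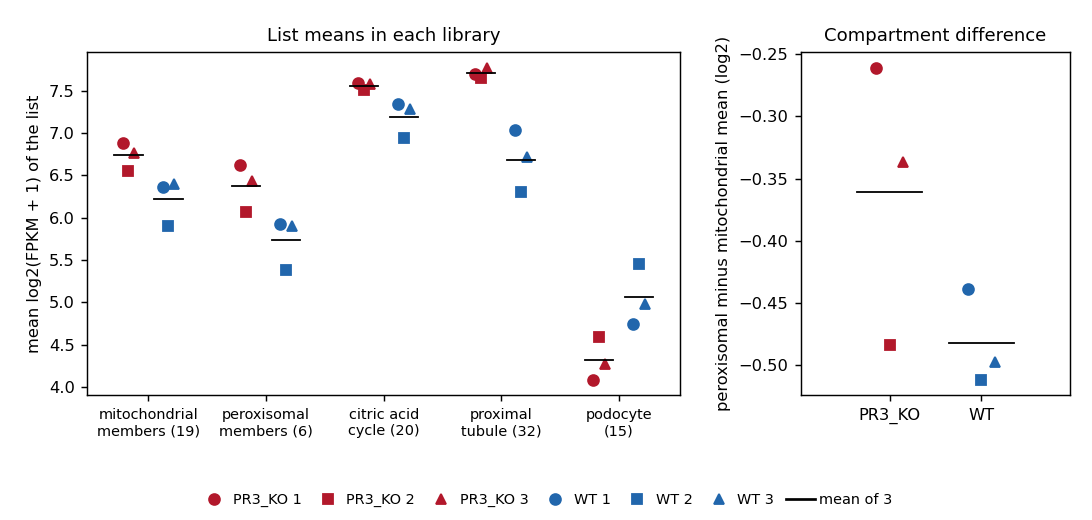
The left plot gives the mean log2(FPKM + 1) of 5 gene lists in each library, PR3_KO in red left of WT in blue, with bars at the mean of 3; PR3_KO is higher for the mitochondrial, peroxisomal, citric acid cycle and proximal tubule lists and lower for podocyte markers. The right plot gives the peroxisomal minus the mitochondrial mean, where PR3_KO 2 (-0.48) falls within the WT range of -0.51 to -0.44.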

How the data were processed

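RNA sequencing of 6 libraries of mouse glomeruli, 3 PR3_KO and 3 WT, was analysed from the deposited tables. Per the labels' protocols, total RNA was taken up in Trizol, enriched with oligo(dT) beads and read on a DNBSEQ sequencer. Per the submitters' processing notes, Bowtie2 and the build GRCm38.p6 were used; how fragments were quantified, on which annotation and strand, was not given in the sources used here. The authors deposited FPKM with 2 decimals and no counts, per the file headers. An FPKM falls when other transcripts take more of a library's fragments, so scalings were compared.

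Of 22064 Entrez IDs, 3242 were empty in all libraries and 18822 had values, of which 18770 matched a RefSeq gene table of GRCm38.p6. Depth was read roughly from the most common value above 0 of 66 olfactory receptor genes, taken as 1 fragment. Genes whose mean reached 1 FPKM were tested, 12388 in number and all 32 described here among them. Their log2(FPKM + 1) entered limma 3.58.1 (R 4.3.3, statmod 1.5.0) with a term for genotype, an intensity trend and robust moderation, and Benjamini-Hochberg adjustment ran over these 12388. The script was tested on simulated data, where it missed many of the changed genes, the smaller changes most of all. A gene that did not pass the test may thus still differ between the genotypes. Low genes and ratios were compared by exact permutation. Python 3.11.15, numpy 2.4.6, pandas 2.3.3 and matplotlib 3.10.9 were used.

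The 32 genes, the compartments and the 16 lists (8 of pathways, 8 of markers) were chosen with earlier results of these data known. Some genes of these lists are not reported here and were left out of their counts. All 32 genes are named; of each pathway list the up to 4 genes with the smallest adjusted p are named. Cyp4a14, Bdh1, Slc16a1, Slc16a6, Cpt1b, the ratio pairs and the pattern of the libraries numbered 2 were singled out after their values were seen. Sequence shared with other genes was counted in 50-base windows of the longest GENCODE M21 protein-coding transcript. Alternatives were other pseudocounts, filters, scalings and moderation, a replicate block, a proximal tubule score as covariate, each library left out, and other compartment assignments.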

Additional observations from a re-analysis of the deposited data

How the results depend on the processing

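The count of 19 rising genes stayed within 1.5 times under a pseudocount of 0.1 (19), no filter (15), median-of-ratios scaling (26), equal sums (14) and no trend (19). Same-numbered libraries share only a number (their deviations from the genotype means correlated across genes at 0.068, 0.270 and -0.087, and 3 of the 6 libraries correlated best with their own number); with the number as a block it was 23. Leaving out 1 library at a time gave 9 to 20, with 9 without PR3_KO 1 and 9 without PR3_KO 3. Without PR3_KO 2 and WT 2, chosen after seeing the data, it was 22, with 1168 over all genes. No setting made any of the 32 fall (limma). Over all genes the rising count was 1454; it was 3149 with median-of-ratios scaling, 896 with equal sums and 917 to 1514 with 1 library left out, lowest without PR3_KO 1 (917) and PR3_KO 3 (943). The falling count was 5091; it was 2768 with median-of-ratios scaling and 3837 to 4764 with 1 library left out. The mitochondrial median, 0.53, was 0.86 with median-of-ratios scaling and 0.38 to 0.64 with 1 library left out. The peroxisomal median, 0.63, was 0.96 with that scaling, 0.44 to 0.76 with 1 library left out, and 0.64 with the genes of shared location added. The peroxisomal minus mitochondrial difference, 0.12, was 0.07 to 0.18 with 1 library left out.

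With the proximal tubule score as covariate, 0 of the 32 and 0 of all genes rose and 0 fell (limma); 1 of the 32 and 1197 of all genes had an unadjusted p under 0.05. The mitochondrial median became -0.11, the peroxisomal median -0.064 and their mean difference -0.0032. In the same fit the median was -0.13 over the 32 genes and -0.15 over all genes tested. Log2 fold changes turned negative for Slc27a2 -0.64, Fabp1 -0.47, Slc25a20 -0.56, Acadvl -0.23, Acadl -0.52, Acadm -0.49, Hadh -0.023, Hadhb -0.055, Acaa2 -0.11, Decr1 -0.45, Eci2 -0.16, Etfa -0.50, Etfb -0.60, Etfdh -0.081, Acot2 -0.48, Acot1 -1.20, Pdk4 -0.29, Acaa1b -0.46, Hsd17b4 -0.16 and Pex11a -0.90. The cause was not tested. With equal sums Slc25a20 became -0.0014 and Hadhb -0.037. With 1 library left out Slc25a20 ranged over -0.021 to 0.30, Acot1 over -0.14 to 0.50 and Pex11a over -0.025 to 0.44, each lowest without WT 2; Acot1 was also negative without PR3_KO 1 (-0.034). Fabp1, at 4.43 FPKM or less, rests on the fewest fragments per length, and with FPKM alone a count test was not run.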
